A study of Mus musculus with 70 samples.

Results

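The step from the fourth to the fifth in vivo passage (P4 to P5) was followed on the route that seeds the lung from the bloodstream. RENCA cells, a renal adenocarcinoma line of BALB/c mice, had been made to express GFP and were injected into the tail vein of 6-week-old female BALB/c mice, and the cells recovered from the lung metastases were injected again for the next passage. The samples of this route, called T-LM for tail vein to lung metastases, were chosen by their titles: 4 T-LM samples of P4 and 6 of P5, which are 10 of the 70 arrays and of the 65 RNA samples of the series. Both groups came from wild type, immunocompetent hosts and both carry the GFP vector, so they differ by label in the number of passages alone. By the study's methods the recovered cells were kept in culture until no cells without GFP were left, for about 2 weeks, and RNA was taken from such cells. The labels name a tissue homogeniser in the RNA step, so the labels alone do not settle whether a sample was a culture or a piece of tissue, which bears on every marker of other cell types given here. The labels do not tie a sample to a single mouse, and p-values measure the spread between these samples, which may in part be technical.

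Injection into the tail vein skips growth at the primary site and leaves the later steps of metastasis, which are survival in the blood, arrest in the lung capillaries, exit and outgrowth. Macrophages of the lung take up tumour cells and debris, and their products, complement C1q, chemokines, lysozymes and arginase, are common in lung tissue that carries tumour cells. RNA of such cells in a sample of tumour cells is read on the same array, and with bulk RNA fewer cells of a type and less RNA per cell cannot be told apart.

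RNA was labelled with Cy5 and hybridised to single-colour Agilent mouse arrays. A level below is a probe's processed signal on the log2 scale, set against the array's 75th percentile over the 12209 probes that were well above background on all 70 arrays, so that 0 is a bright probe and the lowest levels are background. A change is the level at P5 minus the level at P4 with its SE, fitted by limma over the 21 T-LM and parental arrays, and a gene is called when its Benjamini-Hochberg adjusted p is 0.01 or less.

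The P5 arrays were dimmer than those of P4. The share of probes well above background was between 31.1% and 36.1% at P4 and between 25.2% and 32.2% at P5 (difference -5.89 percentage points, p = 0.0143, two-sided exact permutation test over 210 assignments). The 75th percentile of the signal of all probes was 314 to 544 intensity units at P4 and 128 to 354 at P5 (log2 difference -1.11, p = 0.0143, same exact test). The mean level of 17 long mRNAs minus that of 82 ribosomal protein mRNAs, used here as an index of long against short transcripts, was also lower at P5 (-0.658, p = 0.0476, same exact test). It was 0.00413 after quantile normalization, and p was above 0.05 without P4 replicate 1, 2 or 3 or without P5 replicate 1, 2, 3 or 5. All P5 arrays lay in 1 position of their slides and all P4 arrays in others, so position and passage cannot be told apart. The part of brightness in the results that follow was not tested beyond the fits named beside them.

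**Figure D1:**
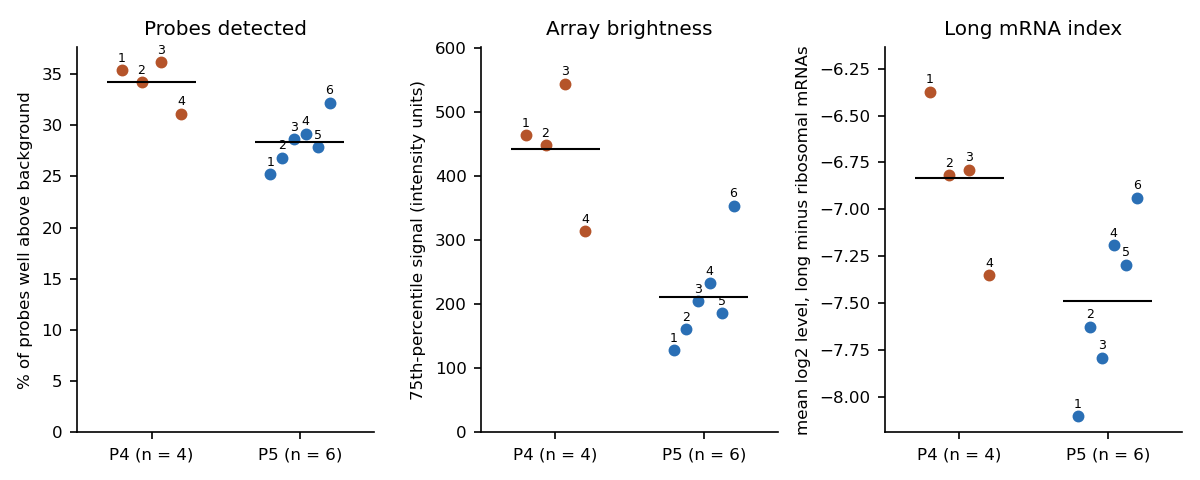
Each point is 1 array, numbered by replicate, of T-LM P4 (4 arrays) or P5 (6 arrays), with a line at the group mean. The panels show the percent of probes well above background, the 75th percentile of the signal of all probes in intensity units, and the long mRNA index in log2 units, and P5 lies lower than P4 on average in all 3.

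P5 replicate 1 stood apart from its group. Its median correlation with the other P5 arrays was 0.950, against 0.969 to 0.978 for the other 5, and it was the dimmest array with 128 intensity units. The summed level of 12 fibroblast markers, on a linear scale relative to the array's 75th percentile, was 43.4 on this array, 1.50 to 3.00 on the other P5 arrays and 2.01 to 9.21 at P4. Smooth muscle and pericyte markers summed to 39.5 on it and to 1.84 to 3.60 on the other P5 arrays. On the same array 7 of the 13 macrophage markers called lower were at or above their lowest P4 level, so the results on those genes are given with and without it.

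Of the markers of renal tubule epithelium, the keratins Krt8 and Krt18 and the kidney transcription factor Pax8 were above background on all 10 arrays. Krt8 had a mean level of 1.33 at P4 and 1.43 at P5, Krt18 of 3.37 and 3.64, and Pax8 of -2.95 and -3.04, and none of the 3 was called. Epithelial cadherin Cdh1, Epcam, Pax2, Hnf4a, Lrp2 and Umod were not above background on any array of either passage, and 9 of the 16 markers were undetected in both. The water channel Aqp1 was the only marker of this list called (-2.17), with P5 replicate 1 (-3.18) above all P4 arrays, and it lost its call in 9 of 10 fits that left out 1 array.

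Between P4 and P5, 2476 of 21381 tested probes were called (11.6%), 767 higher at P5 (3.59%) and 1709 lower (7.99%). The called probes with a gene name stood for 1624 symbols. Of the calls, 1412 had a change of at least 1 on the log2 scale, 327 higher and 1085 lower. In 2083 of the calls the P4 and P5 samples did not overlap. Calls were chosen by p, which favours groups that lie apart, and the share without overlap over all tested probes is not given. The 2083 are thus not separate evidence. Among the calls, 438 lower probes were above background on P4 arrays and on no P5 array, and 58 higher probes on P5 arrays and on no P4 array, so the size of these changes has at most a bound. A further 26 called higher and 4 called lower were above background on no array of either passage and have no size. On probes above background on all 10 arrays the calls were closer to balance, 586 higher and 761 lower.

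The balance of rises and falls depended on the scaling. The share of calls that were higher was 31.0%, and it was 58.2% when each array was scaled to the 75th percentile of all its probes, which moved the median change of all probes from -0.07 to 0.14. Among the pair of slides that each held a P4 and a P5 array, 2465 of 2470 called probes had their fitted direction on both. The arrays of these slides also entered the fit that chose the probes, and 2083 calls had no overlap of P4 and P5. This agreement was thus largely fixed in advance and is not separate evidence. With array brightness as a covariate 646 probes were called, and with 1 common floor for all arrays 1663. Both fits were chosen after the data were seen. Leaving out 1 array changed the count to 1398 without P4 replicate 2, 1324 without P4 replicate 3, 1456 without P4 replicate 4 and 1551 without P5 replicate 3, and to 2940 without P5 replicate 1.

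Macrophage markers had the largest share of calls among the gene lists examined. Of 20 markers, 19 passed the filter on dim probes, and 13 of these were lower at P5 and none higher, with a median change of -2.39. The median was -0.33 with 1 common floor for all arrays, where 9 were lower, and -0.35 over the markers above background on all 10 arrays, so its size rests on P5 levels at background. Over all 12056 symbols tested, with 1 probe each, 8.12% were lower and 3.46% higher and the median change was -0.11. At P4, 17 of the 20 markers were above background on all arrays, at P5 only 6, and Cx3cr1 was above background in neither passage and was not tested. Without P5 replicate 1, 15 were lower and the median was -2.57. When probes had to be above background on all 10 arrays, 6 markers remained and 2 of them were lower, Cd14 and Lyz1.

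Tyrobp, an adaptor of activating receptors of myeloid cells, showed the pattern array by array. Its level was -2.09, -1.40, -1.16 and -1.34 at P4. At P5 it was -1.43 on replicate 1 and between -7.72 and -6.30, not above background, on the other 5. Replicate 1 thus lay within the P4 range and the rest lay far below it (change -4.85 ± 0.88 SE, adjusted p = 0.000921, limma). The change was -5.83 without P5 replicate 1 and -3.11 with 1 common floor.

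Fcer1g, a signalling chain of Fc receptors, had levels of -1.88, -1.67, -1.04 and -1.55 at P4, of -0.92 on P5 replicate 1 and of -7.42 to -6.03 on the other P5 arrays (change -4.13 ± 0.84, -5.08 without replicate 1 and -2.99 with the common floor). The secreted protease Ctss and the lysozymes Lyz1 and Lyz2 changed by -3.77, -3.08 and -3.40 on the log2 scale and also overlapped P4 only through P5 replicate 1, and without it by -4.70, -3.77 and -4.08. For Cd14, the lipopolysaccharide co-receptor, no P5 array reached P4: its levels were -0.91, -0.05, -0.15 and -0.26 at P4 and -3.47 to -1.80 at P5 (change -2.39 ± 0.34, adjusted p = 0.00016, limma, and -2.57 without replicate 1).

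The 3 chains of C1q, the recognition molecule of the classical complement pathway and in tissue mainly a macrophage product, were well above background on all P4 arrays and on no P5 array. C1qa was at least 2.84-fold, C1qb at least 1.64-fold and C1qc at least 2.22-fold lower. These bounds set the P4 mean against the detection limits of the P5 arrays, averaged, and need not hold against every P5 array. The mannose receptor Mrc1 was at least 2.88-fold lower in the same way. With 1 common floor for all arrays the changes were smaller, -0.68 for C1qa, -0.33 for C1qc and -0.70 for Mrc1, all called. C1qb changed by -0.045 there and was not called. Its P4 mean of -5.35 lay below that floor of -5.24.

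Not every marker was called lower. Cd68, a lysosomal protein that is not restricted to macrophages, had levels of 0.81, 1.06, 0.81 and 0.58 at P4 and of 0.81 to 2.03 at P5 and was not called (change 0.72, adjusted p = 0.0219, limma), but without P5 replicate 1 it was called higher (0.87, adjusted p = 0.00339, limma). Csf1r, the receptor for macrophage colony-stimulating factor, was above background on all 10 arrays and spread from -3.14 to -1.82 at P4 and from -4.75 to -2.00 at P5, which overlap (change -0.66, adjusted p = 0.477, limma). Itgam (-0.03) and Aif1 (0.41) were likewise detected on all arrays and not called, and Adgre1 (-1.70) and Msr1 (-1.82) missed the threshold. Without P5 replicate 1 Adgre1 (-2.37) and Msr1 (-2.24) were both called lower (adjusted p = 1.72e-05 and 0.00159, limma). With the common floor their changes were 0.17 and -0.03.

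The marker levels did not run in 1 direction over the route. The median level of the 19 tested markers was -7.95 to -7.31 on the 3 P3 arrays, -4.42 to -3.56 at P4, -7.43 to -6.41 on P5 replicates 2 to 6, -4.07 on P5 replicate 1 and -4.22 to -3.60 on the 4 P6 arrays. The median change of the markers was 3.02 from P3 to P4, -2.39 from P4 to P5 and 0.99 from P5 to P6. These steps share the P4 or the P5 arrays. The summed linear level of the markers, in which Cd68 is included, was 5.16 to 7.84 at P4 and 3.00 to 6.80 at P5 (log2 difference -0.54, p = 0.0476, exact permutation test), and the difference was -0.67 without P5 replicate 1 (p = 0.00794, same exact test).

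**Figure D2:**
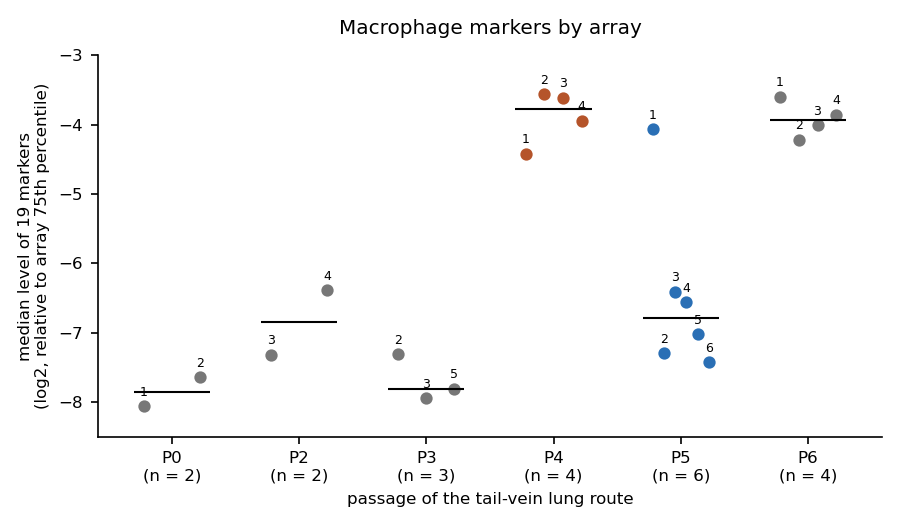
Each point is 1 array of the T-LM route or of the parental cells (P0), numbered by replicate, and shows the median level (log2, relative to the array's 75th percentile) of 19 macrophage markers, with a line at the group median. The 4 P4 arrays, the 4 P6 arrays and P5 replicate 1 lie between -4.42 and -3.56, and P5 replicates 2 to 6 lie between -7.43 and -6.41.

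Pf4, a chemokine stored in platelets and also made by macrophages, had the largest fall among the named genes. Its level was 0.47, 0.61, 1.65 and 1.02 at P4, -0.52 on P5 replicate 1 and between -6.47 and -5.24 on the other P5 arrays. No P5 array reached P4, and the fitted change was -6.08 ± 0.82 (adjusted p = 9.18e-05, limma), or -7.00 without P5 replicate 1 and -5.39 with the common floor. The gene had been at -9.22 to -8.63 at P3 and was at -1.35 to -0.29 at P6.

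Arg1, the arginase that converts arginine to ornithine and marks alternatively activated macrophages, had levels of -2.00, -1.12, -0.70 and -2.26 at P4. At P5 it was -4.13 on replicate 1 and -8.81 to -7.55, not above background, on the others, below every P4 array (change -5.93 ± 0.64, adjusted p = 1.85e-05, and -6.59 without P5 replicate 1, limma), or -3.54 with the common floor. Nos2, the inducible nitric oxide synthase, uses the same amino acid and moved the other way. Its level was -2.36, -1.99, -1.13 and -1.88 at P4 and -0.67, 0.97, 1.73, 2.61, 1.71 and 2.16 at P5, all above P4 and lowest on replicate 1 (change 3.26 ± 0.50, adjusted p = 0.000277, limma). Nos2 was at -2.56 to -0.99 at P6, which overlaps its P4 range.

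The remaining large falls were of genes with varied roles. They include Trf, the iron carrier transferrin, the chemokine Ccl4, Rgs1, a brake on chemokine receptor signalling in leukocytes, Cd93, a surface receptor of myeloid and endothelial cells, and Nrros, which anchors latent TGF-beta on myeloid cells. In these 5 genes P5 replicate 1 was the one P5 array above background, so the size of the fall rests on background levels. The fitted changes were -4.91, -4.92, -3.99, -3.89 and -3.70 in that order, and -3.20, -2.57, -1.39, -1.32 and -1.001 with 1 common floor, all called. Myl1, a myosin light chain of skeletal muscle, was at least 3.79-fold lower, the ephrin receptor Epha8 at least 4.65-fold and coagulation factor X, F10, at least 3.28-fold, with no P5 array above background. Myl1 and Epha8 had no high value on P5 replicate 1, at -7.31 and -7.47.

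Ccr7, the receptor for CCL19 and CCL21 that guides cells to lymph nodes, rose most. It was at -3.93, -4.74, -3.91 and -4.30 at P4 and between -1.34 and -0.69 at P5, with a median of -0.80, so the groups were far apart (change 3.31 ± 0.27, adjusted p = 1.85e-06, limma). At P6 it was at -3.92 to -2.89.

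Wfdc2, a secreted protease inhibitor-like protein used as a tumour marker, rose from -1.42, -1.31, -0.80 and -1.29 to between 0.63 and 1.81 (change 2.63 ± 0.21), and both of its probes were called. Fabp4, a fatty acid binding protein, rose from -4.39 to -3.27 at P4 to -1.29 to -0.23 at P5 (change 3.06 ± 0.37). In both genes replicate 1 was the lowest P5 array.

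Dpep1, a membrane dipeptidase of the proximal tubule, rose by 2.71 ± 0.38 and Ndufa4l2, a mitochondrial protein induced through HIF-1, by 2.56 ± 0.44. Ndufa4l2 had its highest value, 0.94, on P5 replicate 1 and was -1.75 to -0.47 on the rest. Neither gene was called with array brightness as a covariate. Pramel13, of the PRAME-like family, rose by 2.53 ± 0.25.

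The other 5 of the 12 largest rises started from P4 arrays that were all below background. Col8a1, a short-chain collagen, was at least 3.60-fold higher, Nav2, a neuron navigator protein, at least 3.86-fold (1 of its 3 probes was called), Crct1, of the epidermal differentiation complex, at least 3.86-fold, Grb14, an adaptor that restrains insulin receptor signalling, at least 1.66-fold and Vnn3, of the pantetheinase family, at least 1.39-fold. None of these 5, nor Myl1 among the falls, was called with 1 common floor for all arrays, and Grb14 lost its call without P4 replicate 1, 3 or 4 or P5 replicate 4.

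**Figure D3:**
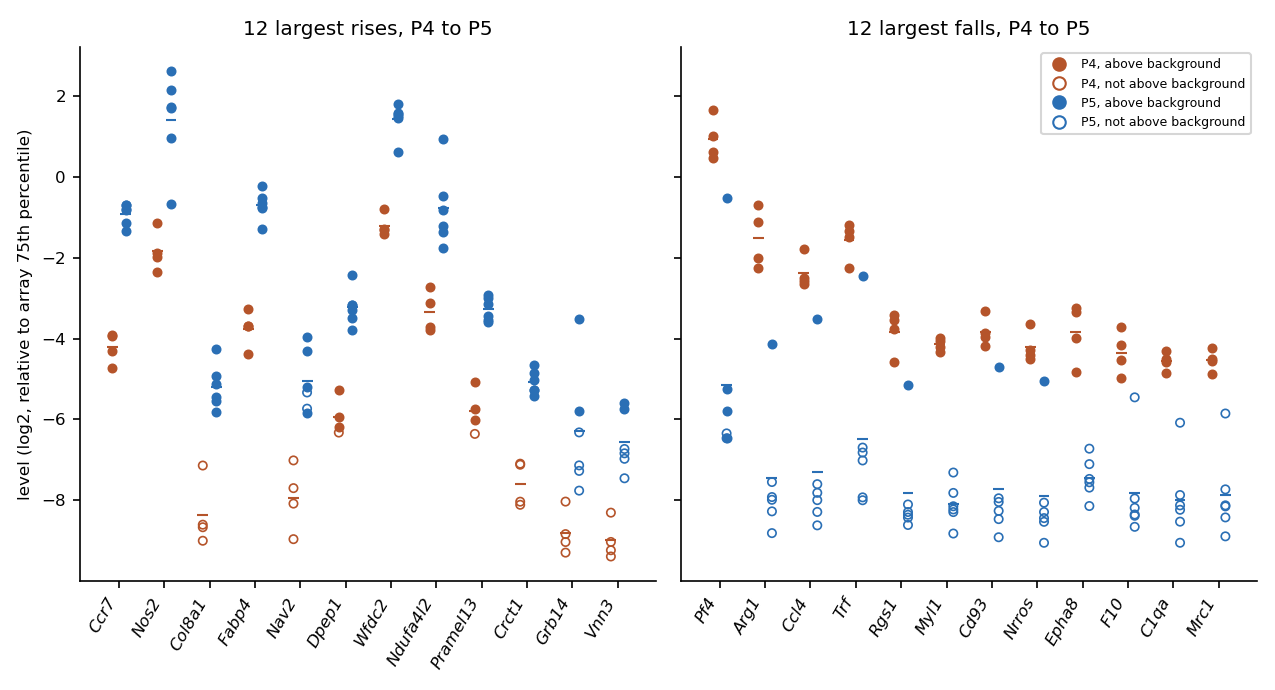
Levels (log2, relative to the array's 75th percentile) of the 12 genes with the largest called rises and the 12 with the largest called falls are shown for each P4 and P5 array, with a dash at the group mean and open points for arrays on which the probe was not well above background. P4 and P5 do not overlap in any of the 24 genes, as the selection required, and in Pf4, Arg1, Ccl4, Trf, Rgs1, Cd93 and Nrros 1 P5 point, replicate 1, lies far above the others.

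Chemokines, the secreted attractants of leukocytes, were called in 1 direction. Of 22 tested chemokines 10 were lower and none higher, with a median change of -1.23 (11 and -1.30 without P5 replicate 1, 5 and -0.71 with the common floor). Among all symbols 8.12% were lower and 3.46% higher. Ccl9 (-4.21), Ccl6 (-4.05), Ccl3 (-3.42) and Cxcl14 (-3.43) overlapped P4 through P5 replicate 1, where Ccl6 had its highest value of all 10 arrays, 2.16. Ccl12 (at least 1.84-fold lower) and the platelet chemokine Ppbp (at least 2.44-fold) had no P5 array above background, and the neutrophil attractant Cxcl2 fell by 1.48 and did not overlap. With the common floor Ccl12 changed by -0.21 and Ppbp by -0.58, and neither was called. The count was 4 when probes had to be above background on all 10 arrays, 5 with array brightness as a covariate, 5 without P4 replicate 3 or 4, and 6 without P5 replicate 3 or 5.

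Of 19 tested complement genes 7 were lower and none higher (median change -0.67), 8 were lower without P5 replicate 1 (median -0.64) and 6 with the common floor (median -0.19). For this list and the next, the share lower over all symbols was 8.12%. Besides the C1q chains, they included properdin Cfp, C4b and the anaphylatoxin receptor C3ar1, which was above background on 2 P4 arrays and no P5 array. Of 20 tested cytokines and growth factors of myeloid cells, 3 were lower, the alarmin Il33, the receptor chain Csf2ra and Il23a, and none higher, and of these Csf2ra alone was above background on a P5 array, replicate 1.

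Interferon-stimulated genes, which restrict viral replication or present antigen when interferon is sensed, were lower in 13 of 48 and higher in none (median change -0.77). The shares of all symbols were 8.12% and 3.46%. Ifi204, a cytosolic DNA sensor, fell from 1.05, 1.16, 1.37 and 1.17 at P4 to between -0.14 and 0.58 at P5 (change -0.99 ± 0.16). Ifi47, an interferon-inducible GTPase, fell from -1.72, -1.81, -1.19 and -1.55 to between -3.18 and -2.20 (change -1.26 ± 0.20). In both the groups were apart and replicate 1 lay among the P5 arrays. The transcription factor Irf1 fell by 0.80 and the guanylate-binding protein Gbp4 by 1.38. Gbp7 and Gbp9 were also called lower but were above background on none and 1 of the P5 arrays, and with the common floor neither changed. The count was 16 without P5 replicate 1, 7 without P4 replicate 2, 6 without P4 replicate 3 or 4, 8 without P5 replicate 3 or 5, and 2 with array brightness as a covariate.

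Matrix-degrading enzymes were lower in 5 of 21 and higher in none, against 8.12% lower and 3.46% higher over all symbols. The collagenase Mmp13 fell by 2.63 ± 0.40, and Mmp10 and the sheddase Adam8 changed by -1.34 and -2.197. The neutrophil collagenase Mmp8 and the macrophage elastase Mmp12 were above background on 1 P5 array each, and Mmp12 was at -4.20 on P5 replicate 1, inside the P4 range. In the plasminogen activator system, a list with few members, 2 of 9 rose and 1 fell, to be set against the same shares. Serpinb2, an inhibitor of plasminogen activators, went from -1.66, -2.67, -1.05 and -1.002 to between -5.45 and -4.26 (change -3.11 ± 0.56), without overlap.

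Genes of glycolysis and of the response to low oxygen were higher in 9 of 41 and lower in 3, with a median change of 0.41. All symbols together were 3.46% higher and 8.12% lower. The enolases Eno1 and Eno2 rose by 0.83 ± 0.14 and 1.66 ± 0.30, the glucose transporters Slc2a1 and Slc2a3 by 0.93 ± 0.19 and 1.76 ± 0.33, the vasodilator peptide Adm by 1.09 ± 0.20 and Ndrg1 by 1.01 ± 0.21. Slc2a1 was at 1.39, 1.35, 1.82 and 1.18 at P4 and at 1.94 to 2.72 at P5, all above P4. Against this direction the HIF target Car9, a carbonic anhydrase, fell by 1.23 ± 0.29 and the histone demethylase Kdm3a by 1.01 ± 0.13, and Narf was called lower near background. Car9 lost its call in 4 of 10 fits that left out 1 array. The count of rises was 4 after quantile normalization, 5 without P4 replicate 4 and 2 with array brightness as a covariate.

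Promoter sequence is shown for Slc2a1 and for Pf4, the one a glucose transporter that rose and the other the gene with the largest fall. The 250 bases before the annotated start are from RefSeq (GRCm38.p6). Capitals mark the core of the HIF binding motif, ACGTG, in Slc2a1 (chr4:119108495-119108744, plus strand, first base 36 before the start), and the core of the PU.1 motif, GAGGAA, on the other strand in Pf4 (chr5:90772185-90772434, plus strand, first base 8 before the start).
Slc2a1: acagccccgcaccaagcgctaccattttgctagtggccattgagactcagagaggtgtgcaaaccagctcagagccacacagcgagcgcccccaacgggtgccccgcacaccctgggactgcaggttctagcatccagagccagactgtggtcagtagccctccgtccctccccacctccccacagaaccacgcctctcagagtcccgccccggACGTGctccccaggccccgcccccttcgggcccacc
Pf4: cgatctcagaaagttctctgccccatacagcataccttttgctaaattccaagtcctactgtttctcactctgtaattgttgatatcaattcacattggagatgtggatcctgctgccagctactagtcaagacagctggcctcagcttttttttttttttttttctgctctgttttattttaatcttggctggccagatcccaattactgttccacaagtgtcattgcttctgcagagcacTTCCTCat
On either strand ACGTG was found in 2 of the 7 listed among the 9 glycolysis and hypoxia genes called higher, Slc2a1 and Pfkm, and in 18.5% of 27025 symbols. GAGGAA was found in 6 of the 10 listed among the 13 macrophage markers called lower and in 25.9% of symbols. These matches describe the letters in the window and not binding.

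Genes of the defence against oxidants were higher in 9 of 47 and lower in 1 (median change 0.20), against 3.46% and 8.12% of all symbols. Hmox1, the haem oxygenase, rose from 1.28, 1.60, 1.35 and 0.98 to between 2.08 and 2.41 (change 0.97 ± 0.14, adjusted p = 0.000203, limma). The glutathione transferases Gsta4 and Gsta2 rose by 1.92 and 1.25, the NADPH-forming enzyme Me1 by 0.98, and the ferritin chains Fth1 and Ftl1 by 0.79 and 0.87. Nfe2l2, which encodes the transcription factor NRF2 that drives many of these genes, fell by 0.98 ± 0.19. The count of rises was 4 without P4 replicate 2 or P5 replicate 3 and 3 with array brightness as a covariate.

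Cytosolic ribosomal proteins, among them Rpl39l, which was above background on no array of either passage, were higher in 13 of 82 and lower in none, with a median change of 0.49 and 81 of 82 changes above 0, but the median was -0.04 after quantile normalization and -0.03 with array brightness as a covariate, where 1 and 0 were called. The count moved whichever array was left out, to 25 without P5 replicate 6 and to between 3 and 8 in the other fits of that kind. Rplp0, a stalk protein of the large subunit, had levels of 4.13, 4.22, 3.83 and 4.34 at P4 and of 4.52 to 5.47 at P5, highest on the dimmest array, replicate 1. Respiratory chain subunits were higher in 4 of 77 and lower in none (median 0.22), and mitochondrial ribosomal proteins lower in 2 of 74 and higher in none, against 3.46% higher and 8.12% lower over all symbols.

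Over all symbols 8.12% were lower and 3.46% higher. Of 40 genes of the endoplasmic reticulum and integrated stress responses, 5 were lower, Creld2 (-1.07), Dnajc3 (-1.13), Dnajb9 (-1.04), Dnajb11 (-0.53) and Sel1l (-1.68), and 1 was higher, the arginine and lysine transporter Slc7a3 (1.86 ± 0.21). Slc7a3 was at -4.93 to -4.50 at P4 and at -3.25 to -2.19 at P5.

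Immediate-early genes, whose transcripts follow growth signals within minutes, were higher in 3 of 27 and lower in none, against 3.46% and 8.12% of all symbols. The phosphatase Dusp4 rose by 2.39 ± 0.29 and Fosb by 2.23 ± 0.33, with Jun at 0.82 ± 0.20. Among 56 genes of cell cycle and replication 2 were higher, the inhibitor Cdkn1a (1.44 ± 0.20) and the cyclin Ccnd3 (0.60), and 2 were lower, the histone methyltransferase Ezh2 (-0.96) and the replication licensing factor Cdc6 (-0.87), shares that lie near or below those of all symbols. Ccnd3 lost its call in 8 and Cdc6 in 7 of 10 fits that left out 1 array. Cdkn1a went from -1.05, -0.71, -1.23 and -1.31 to between -0.01 and 0.65 and fell by 2.08 from P5 to P6. In the Bcl2 family Pmaip1 rose by 1.02, with the call lost in 5 of 10 such fits, and Bmf (at least 3.13-fold lower), Bcl2a1d and Bbc3 fell.

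Transcription factors of the kidney lineage were lower in 4 of 17 and higher in none, against 8.12% and 3.46% of all symbols. All 4 were Hox genes. Hoxb7 was at -1.18, -1.27, -0.85 and -0.83 at P4 and at -3.07 to -1.76 at P5 (change -1.47 ± 0.24, adjusted p = 0.000413, limma). Hoxa10, Hoxa11 and Hoxd10 fell by 1.34, 1.01 and 1.12. Of the keratins, Krt19 rose by 1.48 ± 0.27 while Krt7 (at least 1.19-fold) and Krt23 (at least 1.71-fold) were lower. Of the retinoid and prostaglandin genes, the nuclear receptor Rxra rose by 2.03 ± 0.20 and the retinoic acid carrier Crabp2 by 1.39, and the prostaglandin receptor Ptger3, the thromboxane synthase Tbxas1, Cyp26b1, which degrades retinoic acid, and Rdh10 fell.

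Markers of other cell types of the lung had few calls, in lists with few tested members. Of 8 tested lung epithelial markers 3 were lower, the surfactant protein Sftpd (at least 1.32-fold), the club cell secretory protein Scgb1a1 (at least 1.80-fold) and Lamp3 (-0.78). The summed level of the 8 was 0.633 to 0.861 at P4 and 0.380 to 0.520 at P5, without overlap. Lamp3, with mean levels of -0.57 at P4 and -1.35 at P5, made up most of this sum. Sftpd and Scgb1a1 had means of -5.67 and -5.19 at P4. On the parental arrays, before any passage, the sum was 0.413 to 0.699. Lymphocyte markers had no calls, and all 7 B cell markers with a probe were below background on every array. Of 5 tested neutrophil markers 1 was higher, Elane, and of 5 smooth muscle and pericyte markers 1 was higher, Cspg4. Of 7 tested endothelial markers 1 was higher, Esam, and 2 were lower, Cldn5 and Plvap. In either direction 11.6% of all symbols were called, and the shares of these lists with calls lay above it on few members. Fibroblast markers had none of 10, and matrix proteins of connective tissue 2 of 35, both higher, Col8a1 and Col6a3 (1.74 ± 0.34). No gene of the IL-6 family (16 tested) and no collagen-modifying enzyme (26 tested) was called.

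Of 20 genes of the tail-vein signature that the study drew from these samples, 2 were called higher and none lower. The signature's other 4 genes were not used here. Those called were Dyrk4 (1.78 ± 0.30) and Crabp2, which lost its call in 2 of 10 fits that left out 1 array. Most changes went the other way, 13 below 0 and 7 above, with a median of -0.45. Since the list was chosen on these samples it is not independent evidence of a direction.

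**Figure D4:**
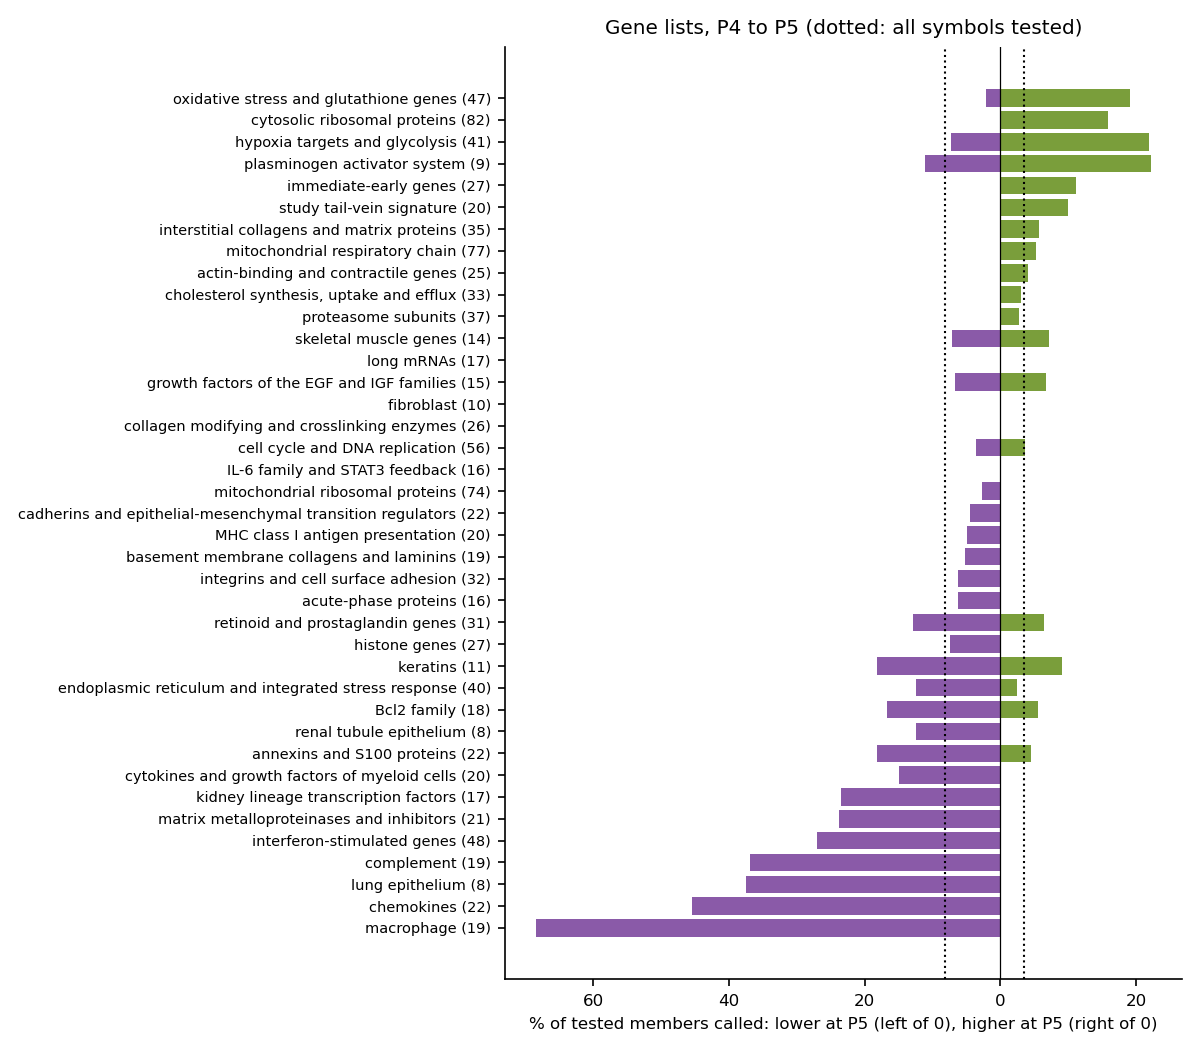
For each gene list with at least 8 tested members, their number in brackets, bars give the percent of tested members called lower at P5 (left of 0) and higher at P5 (right of 0), and dotted lines the same over all 12056 symbols, 8.12% and 3.46%. Macrophage markers (13 of 19) and chemokines (10 of 22) reach farthest to the left, and the glycolysis, oxidative stress and plasminogen activator lists reach farthest to the right.

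The same step was compared with that of the other routes, the kidney tumours (KPT, 3 samples of P4 and 5 of P5) and the lung metastases that formed after injection into the kidney (K-LM, 3 and 4), in 1 fit of 54 arrays and 23069 probes. The T-LM step differed from the KPT step in 156 probes (0.676%) and from the K-LM step in 903 (3.91%), and 3919 and 6423 had an unadjusted p under 0.05. The KPT step itself had 282 calls (1.22%) and the K-LM step 1389 (6.02%). Without P5 replicate 1 the difference from KPT had 342 calls, and without P4 replicate 2 it had 68. The difference from K-LM had 442 without P4 replicate 4. On KPT P5 replicates 1 and 2 the macrophage markers summed to 14.8 and 18.9, against 3.96 to 4.53 on the other 3 KPT P5 arrays, and smooth muscle and pericyte markers to 38.2 and 19.01, against 0.634 to 0.922. Without this pair, a setting chosen after the data were seen, the difference from KPT had 178 calls. The mean long mRNA index went from -5.95 at P4 to -7.14 at P5 on KPT and from -6.13 to -8.24 on K-LM. On T-LM it went from -6.83 to -7.49. The mean 75th percentile of the signal went from 487 to 308 intensity units on KPT, 429 to 291 on K-LM and 443 to 211 on T-LM. The K-LM P4 arrays were uneven, with fibroblast marker sums of 0.575 to 14.26 and smooth muscle and pericyte sums of 0.201 to 15.95. The part of these values in the route differences was not tested.

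Nos2 differed from both routes. Its change was 3.26 on T-LM, -1.78 on KPT and -0.42 on K-LM, and the differences were 5.04 ± 0.67 and 3.67 ± 0.69 (adjusted p = 2.38e-05 and 0.000655, limma). Without KPT P5 replicates 1 and 2 the first was 5.21. Arg1 fell on T-LM and changed by 1.54 and 0.51 on the others, which gave differences of -7.47 ± 1.36 and -6.43 ± 1.40 (adjusted p = 0.00117 and 0.00263, limma). Without those KPT arrays its KPT change was -1.11 and the difference -4.81 ± 0.85 (adjusted p = 0.000708, limma). Rgs1 (-5.26 and -5.73) and Pramel13 (2.49 and 2.47) likewise differed from both routes, but without those arrays their differences from KPT, -3.18 and 2.27, did not pass (adjusted p = 0.016 and 0.0151, limma).

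Pf4 differed from K-LM, where it changed by 4.42, by -10.5 ± 2.06 (adjusted p = 0.00103, limma), and its difference from KPT, -5.33 ± 2.01, did not pass (adjusted p = 0.145, limma). Without KPT P5 replicates 1 and 2 Pf4 changed by -4.17 on KPT and the difference was -1.91 (adjusted p = 0.531, limma). Wfdc2 and Vnn3 differed from KPT, by 2.07 and 3.01 (2.39 and 3.14 without those arrays, where Vnn3 did not pass, adjusted p = 0.0116, limma), and Nav2 and Nrros from K-LM, by 4.39 and -4.92. For Ccr7 the changes of 1.23 on KPT and 1.60 on K-LM were smaller than 3.31, but the differences did not pass (adjusted p = 0.0184 and 0.0285, limma). Without those KPT arrays the difference of Ccr7 from KPT was 2.61 and passed (adjusted p = 0.00212, limma), as did those of Col8a1 (4.72) and Epha8 (-3.73). Of the 3315 T-LM calls of this fit, 99 were shared with KPT (2.99% of the T-LM and 35.1% of the KPT calls) and 98 of these had the same direction. With K-LM 220 were shared (6.64% and 15.8%), 185 in the same direction. Over all probes of this fit 1.22% were KPT calls and 6.02% K-LM calls, so the share of T-LM calls found with K-LM was near that of all probes. The macrophage markers had a median change of 0.26 on KPT and 0.59 on K-LM, and of -1.29 on KPT without its P5 replicates 1 and 2, so the direction on KPT rests on that pair of arrays.

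**Figure D5:**
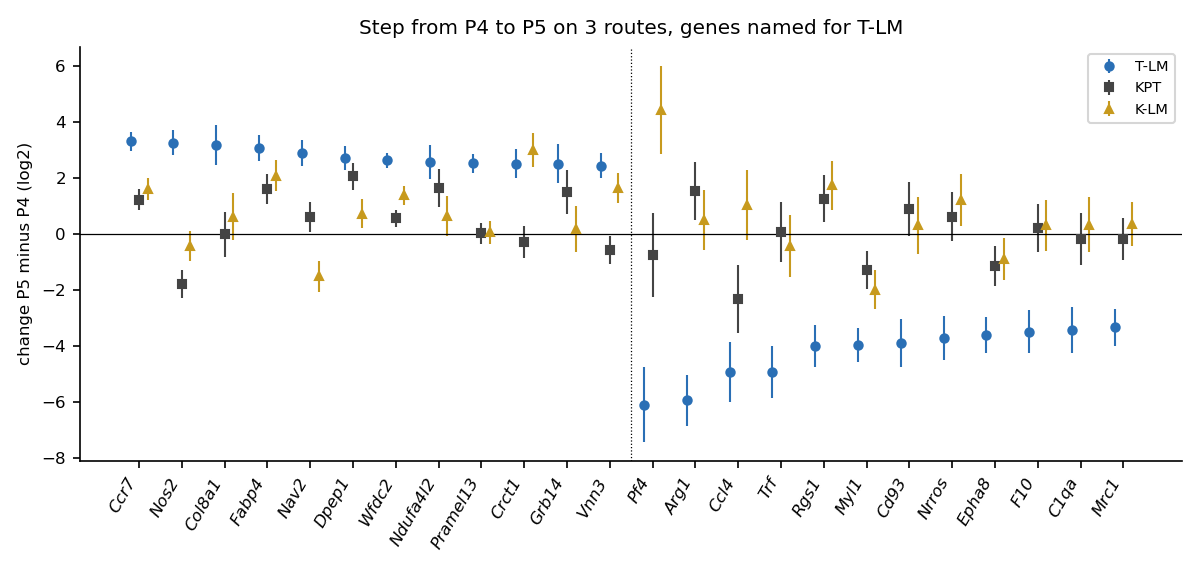
Points give the fitted change from P4 to P5 (log2) on the T-LM (circles), KPT (squares) and K-LM (triangles) routes for the 12 genes with the largest called rises and the 12 with the largest called falls on T-LM, and bars are 1 SE. The KPT values include P5 replicates 1 and 2, which stand apart. The T-LM values chose the genes, and among the others Pf4 on K-LM (4.42) and Crct1 on K-LM (2.99) lie farthest from 0.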

How the data were processed

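Total RNA, by the study's methods of cultured cells, had been labelled with Cy5 and hybridised to single-colour Agilent SurePrint G3 mouse arrays. The deposited scanner files hold intensity values per spot, background-subtracted by Agilent Feature Extraction 11.0.1.1 (12.0.2.2 on 1 slide that held no T-LM array), per the file headers. A deposited series table holds the authors' log2 values, which equalled log2 of the quantile-normalised raw median signal to within 0.105 (column medians 6.21 to 6.23). The genome build of the array design was not given in the sources used here.

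Control spots (3671 of 62976) and spots marked as outliers by the scanner software (0.366% of values) were left out, and spots of 1 probe were averaged, which left 55681 probes. Of these, 28026 were matched to 21154 gene symbols through RefSeq (GRCm38.p6) names and 27655 kept no symbol. Each processed signal was put on the log2 scale and set against its array's 75th percentile, taken over 12209 probes detected on all 70 arrays. Probes entered a test when 2 or more of its arrays had them well above background, and the brightest probe stood for a symbol in the gene lists.

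Groups were taken from the titles. The P5 minus P4 contrast was fitted with limma 3.58.1 (R 4.3.3) on 21 arrays of P0 and T-LM P2 to P6, without covariates, and the difference between routes on 54 arrays. Calls were made where p, adjusted over all probes tested by Benjamini-Hochberg, was at most 0.01. A fold given as "at least" sets the brighter group's mean against the detection limits of the other group's arrays, averaged. On simulated data (21052 probes) 38% of log2 changes of 1 and 90% of changes of 2 were called, with 0 unchanged probes called. The simulation changed 200 probes and drew independent noise of the same spread in all groups. It held no difference in brightness or slide position and no outlying array, so its rates do not carry over to such effects.

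The 12 largest called rises and 12 largest called falls without overlap of P4 and P5 are named, with 1 probe per symbol and symbols of the form Gm plus digits or ending in Rik left out, and from each list the called members with the lowest p. Members, gene lists and markers were chosen with earlier results of these data known. Other members of a list are named where the text counts them. The alternatives were other scalings, background correction, filters, floors, covariates, blocks and sets of arrays, and each replicate left out in turn. The background correction by normexp used the median signal, since the files hold no mean signal. The number of arrays limits the precision. Some members of the lists are counted but not reported by name here.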

Additional observations from a re-analysis of the deposited data

Results flagged for a closer look

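In groups of 4 to 10 arrays, a single array far from the others was looked for by the gap to its nearest neighbour as a share of the group's range (Dixon's ratio, at its 95% critical value). Chance alone marks about 1 in 20 groups. Among the P5 levels the ratio was 0.794 for Pf4, 0.73 for Arg1, 0.8 for Ccl4, 0.765 for Trf, 0.853 for Rgs1, 0.771 for Cd93, 0.753 for Nrros, 0.782 for F10, 0.749 for Alcam, 0.801 for Bcl2a1d, 0.814 for Il33, 0.763 for Csf2ra, 0.746 for Aqp1, 0.791 for Tfpi and 0.647 for S100a14, and in all of these P5 replicate 1 was the high array. In Wfdc2 (0.701) and Gsta4 (0.697) P5 replicate 1 was the low array. In Hbegf (0.89) P5 replicate 2, in Cldn7 (0.667) P5 replicate 4 and in Hoxd10 (0.676) P5 replicate 6 was the distant one. P5 replicate 1 was also the dimmest of the P5 arrays and had the highest fibroblast marker sum, whose part in these values was not tested.

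Among the P4 levels the ratio was 0.833 for Ccl4 (replicate 3 high), 0.901 for Krt19 (replicate 2 high), 0.831 for Dnajc3 (replicate 1 low), 0.917 for Dyrk4 (replicate 4 high) and 0.838 for C1qc (replicate 3 high).

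The change from P4 to P5 differed between routes, by the interaction term at an adjusted p of 0.01 or less (limma), for 9 of the 24 genes with the largest changes. T-LM minus KPT was 5.04 for Nos2, 2.07 for Wfdc2, 2.49 for Pramel13, 3.01 for Vnn3, -7.47 for Arg1 and -5.26 for Rgs1 on the log2 scale. T-LM minus K-LM was 3.67 for Nos2, 4.39 for Nav2, 2.47 for Pramel13, -10.5 for Pf4, -6.43 for Arg1, -5.73 for Rgs1 and -4.92 for Nrros. Without KPT P5 replicates 1 and 2, whose macrophage and pericyte sums stand apart, the differences from KPT of Rgs1, Pramel13 and Vnn3 did not pass, and those of Nos2, Wfdc2 and Arg1 did.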

How the results depend on the processing

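None of the 24 largest changes reversed under any alternative run, but Vnn3 had a change of 0 with the common floor and so kept no direction there. Of the 75 other named genes, 43 lost their call with array brightness, 24 with slide as a fixed term, 23 with the common floor, 21 with normexp, 20 with P4 and P5 arrays alone, 18 with the deposited values, 16 with the index, 15 with quantile normalization, 14 with all routes, 8 with the all-probe percentile and 2 to 21 with 1 array left out. All 24 kept their call under the 75th percentile of all probes, quantile normalization, no filter, all routes in 1 fit and slide as a random block (correlation 0.0893). Grb14 lost it under normexp background correction, the deposited values, the P4 and P5 arrays alone, and the index as a covariate. With slide as a fixed term Col8a1, Ndufa4l2 and Grb14 lost it, and with array brightness Ndufa4l2, Dpep1 and Grb14. With 1 common level floor (-5.24) 6 of the 24 lost it and Alcam turned from -2.11 to 0.0623. The cause of these changes was not tested. Array brightness, the common floor, a filter on P4 or P5 arrays (2533 calls) the list counts without each replicate, and the KPT step without its P5 replicates 1 and 2 were chosen after seeing the data.

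The 2476 calls became 1650 with normexp, 22611 without a filter (89.5% of them higher), 1555 with detection on all 10 arrays (fewer probes tested), 1522 with P4 and P5 arrays alone (fewer arrays), 646 with array brightness and 5299 at an adjusted p of 0.05 or less. They were 1324 to 2940 when 1 array was left out. A floor on the signal of 20 changed no count. Other counts were 2125 with quantile normalization, 1922 with the deposited values, 3315 with all routes, 2640 and 2268 with slide as a random or a fixed term, and 1994 with the index.

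Macrophage markers called lower were 2 with detection on all 10 arrays, 6 with P4 and P5 arrays alone and 9 to 15 with 1 array left out. Chemokines were 4 and 4 under these 2 settings, 6 with all routes, 6 with slide fixed, 5 with array brightness, 5 with the common floor and 5 to 11 with 1 array left out. Interferon-stimulated genes were 7 under the all-probe percentile, 7 with normexp, 8 with the deposited values, 8 with detection on all 10 arrays, 7 with P4 and P5 arrays alone, 8 with slide fixed, 5 with the index, 2 with brightness and 6 to 16 with 1 array left out. Glycolysis and hypoxia genes called higher were 4 with quantile normalization, 4 with the deposited values, 4 with P4 and P5 arrays alone, 2 with brightness and 5 to 10 with 1 array left out. Oxidative stress genes were 3 with P4 and P5 arrays alone, 5 with the index, 3 with brightness and 4 to 10 with 1 array left out. Ribosomal proteins were 25 under the all-probe percentile, 1 with quantile normalization, 7 with normexp, 1 with the deposited values, 3 with P4 and P5 arrays alone, 32 with all routes, 3 with the index, 0 with brightness and 3 to 25 with 1 array left out.

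The T-LM minus KPT count of 156 was 95 without a filter, 57 with slide fixed and 68 to 342 with 1 array left out, and the T-LM minus K-LM count of 903 was 480 without a filter and 442 to 1021 with 1 array left out. The long mRNA index difference was 0.00413 after quantile normalization (p = 0.986, exact permutation test) and -0.831 to -0.505 with 1 array left out.

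The labels do not tie samples of the same replicate number to each other, and the main fit did not pair them. The deviations of same-numbered samples from their group means correlated at -0.02, -0.45, 0.49 and 0.47 for numbers 1 to 4. P4 replicates 3 and 4 correlated best with their own number and P4 replicates 1 and 2 did not, so these values do not settle whether the samples are paired. With the replicate block 2 probes were called (7391 with an unadjusted p under 0.05, limma), Myl1 and Epha8, and the macrophage, chemokine, interferon, glycolysis, oxidative stress and ribosomal counts were each 0. The dimmer P5 arrays limit what can be said of genes near background there.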
